A study of Rattus norvegicus with 12 samples.

Results

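Interferon response and antigen presentation genes were followed in cultured heart muscle as a module of 33 gene symbols. Members were all probe sets of the array whose single gene symbol was on that list. Of the 33 symbols, 31 had a probe set, among 14217 genes with one on the array. They were read by 42 probe sets, and 29 members passed a filter on low intensity (a mean of 4.91 log2) and were tested. Gbp5 and Xaf1 were not analysed here. Ifih1 and Tap2 fell under the filter and are given below by their values only. The members were divided into 18 type I antiviral genes (16 tested), 3 interferon gamma-linked genes (2 tested) and 12 antigen presentation genes (11 tested).

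The tissue was right ventricular papillary muscle, a small column of heart muscle, from 12 adult male LBNF1 rats (a hybrid of the Lewis and Brown Norway strains), 1 muscle per animal. Each muscle was held for 12 h in a culture bath at 37 °C with pacing at 1 Hz, under mean stretch of 16% or 4% and cyclic shortening of 16% or 4% of slack length. There were 3 muscles in each of 4 groups, named here by stretch first and shortening second: high-high, high-low, low-high and low-low. All groups shared strain, sex, medium and culture time, so there was no uncultured muscle among them, and the low-low group served as the baseline of both inputs. Values are log2 intensities from Affymetrix arrays, normalized by the authors with RMA. A difference of 1 is a 2-fold difference, and intensities of different probe sets are not compared with each other.

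The 3 low-low arrays stood apart from the other 9 across the whole array, and 57.6% of all 10316 genes tested differed between the other 3 groups and low-low. The 3' to 5' index, the mean excess of the 3' over the 5' signal of the Gapdh and Actb control probe sets, was 2.94 ± 0.32 in high-high, 3.77 ± 0.63 in high-low, 3.21 ± 0.045 in low-high and 1.36 ± 0.29 in low-low muscles (log2, SD, n = 3 each). Labelled body weight was 267 to 297 in the other 9 animals and 305 to 318 in the low-low animals, with no unit given. Labelled age was 72 to 85 in the other 9 animals and 75 in all 3 low-low animals, also with no unit given. These differences run with the groups, and each comparison with low-low below carries them. With 3 arrays a group, the 95% confidence interval of a pairwise difference had a median half-width of 0.33 log2, or 1.26-fold.

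Type I interferons are secreted after cells sense foreign nucleic acid. Their receptor activates the kinases Jak1 and Tyk2, and a complex that holds Stat2 and Irf9 then binds the interferon-stimulated response element (ISRE) before antiviral genes. Interferon gamma acts through a receptor of its own and the gamma-activated site (GAS) in promoters. It induces Irf1, which also reads ISRE-like sites, guanylate-binding proteins, and the machinery that cuts proteins into peptides and loads them on major histocompatibility complex (MHC) molecules. MHC class I molecules present peptides from inside any nucleated cell, whereas class II molecules are carried mainly by professional antigen-presenting cells and use promoters that bind the factor NF-Y at a CCAAT box. In heart tissue, resident macrophages and dendritic cells are the usual carriers of class II molecules.

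Promoter sequences of the members were searched for the cores of these elements. RefSeq windows of 300 bases on the rat assembly GRCr8, from 250 bases before to 50 after the gene's start, were matched for 28 of the 33 members. The ISRE core was searched as GAAANNGAAA on both strands. It was present in 18 of the 28 windows (64.29%), against 1312 of 33469 promoters in all (3.92%). By role it was present in 9 of 11 antiviral effectors, 1 of 4 interferon transcription factors, 2 of 2 guanylate-binding proteins, 6 of 7 class I genes and 0 of 4 class II genes. The 6 windows that follow are shown because their genes recur in the results and come from both arms. Each reads 5′ to 3′ on the strand of its gene, and the capitals mark the ISRE core, which appears as its reverse complement where it lies on the other strand.
Ifit3, chr1:241527076-241527375 (+ strand): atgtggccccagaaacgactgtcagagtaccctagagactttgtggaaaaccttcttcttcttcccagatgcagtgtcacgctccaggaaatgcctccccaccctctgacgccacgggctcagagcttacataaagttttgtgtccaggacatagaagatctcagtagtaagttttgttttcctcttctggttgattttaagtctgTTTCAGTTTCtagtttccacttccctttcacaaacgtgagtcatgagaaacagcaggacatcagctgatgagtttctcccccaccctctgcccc
Irf7, chr1:205799974-205800273 (- strand): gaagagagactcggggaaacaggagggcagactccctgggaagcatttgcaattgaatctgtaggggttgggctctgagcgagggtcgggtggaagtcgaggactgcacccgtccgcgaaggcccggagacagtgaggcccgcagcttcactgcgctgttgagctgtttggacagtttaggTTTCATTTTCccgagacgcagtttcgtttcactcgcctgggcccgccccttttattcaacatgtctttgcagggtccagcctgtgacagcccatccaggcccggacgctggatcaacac
Gbp2, chr2:234005477-234005776 (+ strand): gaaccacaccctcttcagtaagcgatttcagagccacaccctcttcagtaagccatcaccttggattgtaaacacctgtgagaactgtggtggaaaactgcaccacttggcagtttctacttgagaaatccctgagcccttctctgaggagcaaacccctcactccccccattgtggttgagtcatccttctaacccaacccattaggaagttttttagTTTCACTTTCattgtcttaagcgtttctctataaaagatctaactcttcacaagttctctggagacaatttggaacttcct
Psmb10, chr19:50743243-50743542 (- strand): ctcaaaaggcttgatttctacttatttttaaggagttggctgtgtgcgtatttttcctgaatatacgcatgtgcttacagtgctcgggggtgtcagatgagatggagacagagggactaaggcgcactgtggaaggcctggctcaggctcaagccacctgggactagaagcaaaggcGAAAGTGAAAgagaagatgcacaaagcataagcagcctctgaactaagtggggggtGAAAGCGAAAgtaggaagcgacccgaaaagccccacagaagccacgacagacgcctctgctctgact
Tap1, chr20:4668494-4668793 (- strand): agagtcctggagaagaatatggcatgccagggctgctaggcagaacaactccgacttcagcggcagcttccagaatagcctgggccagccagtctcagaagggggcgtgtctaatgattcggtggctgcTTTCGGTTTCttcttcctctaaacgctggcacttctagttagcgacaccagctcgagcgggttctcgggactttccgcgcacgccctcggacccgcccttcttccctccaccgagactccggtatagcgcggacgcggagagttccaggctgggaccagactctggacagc
B2m, chr3:129549080-129549379 (+ strand): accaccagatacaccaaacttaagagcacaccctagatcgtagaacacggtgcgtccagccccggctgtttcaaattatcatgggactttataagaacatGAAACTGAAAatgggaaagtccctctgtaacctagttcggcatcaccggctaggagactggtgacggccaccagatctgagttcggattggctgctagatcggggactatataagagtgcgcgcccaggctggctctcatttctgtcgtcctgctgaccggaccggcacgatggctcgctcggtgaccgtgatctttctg

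The NF-Y core was searched as CCAAT on both strands. It was present in 14 of 28 member windows, against 37.49% of all promoters, and in 4 of 4 class II genes. GAS was searched as TTCNNNGAA, a motif that is its own reverse complement. It was present in 7 of 28 member windows, against 8.87% of all promoters. The 2 class II windows that follow contrast with those above: they hold no ISRE core, and the capitals mark the NF-Y core on either strand. A match describes the letters of a window, and binding was not measured in this study.
Cd74, chr18:56526956-56527255 (+ strand): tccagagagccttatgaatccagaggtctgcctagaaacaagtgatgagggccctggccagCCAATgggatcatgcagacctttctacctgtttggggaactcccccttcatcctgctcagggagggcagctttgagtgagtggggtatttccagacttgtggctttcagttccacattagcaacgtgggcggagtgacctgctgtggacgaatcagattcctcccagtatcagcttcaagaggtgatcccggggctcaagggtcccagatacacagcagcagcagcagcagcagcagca
RT1-Bb, chr20:4604069-4604368 (- strand): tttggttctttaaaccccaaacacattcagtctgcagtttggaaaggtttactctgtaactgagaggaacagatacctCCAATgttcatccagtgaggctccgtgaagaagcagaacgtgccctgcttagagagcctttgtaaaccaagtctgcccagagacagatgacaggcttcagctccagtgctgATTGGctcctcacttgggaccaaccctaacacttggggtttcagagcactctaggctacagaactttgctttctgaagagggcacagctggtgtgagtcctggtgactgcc

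**Figure D1:**
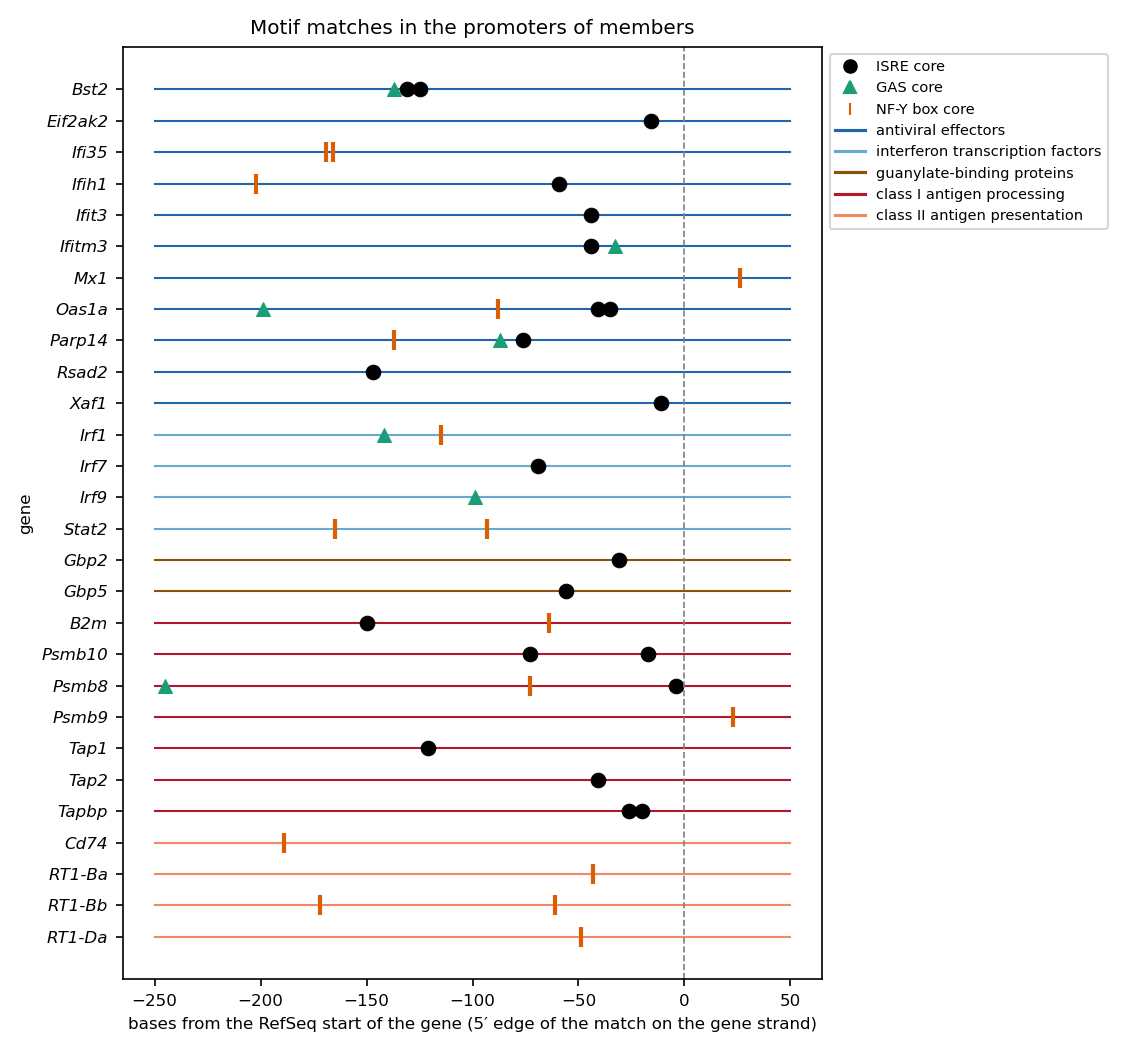
Matches of 3 motif cores in the RefSeq promoter windows of the 28 members found there; the horizontal axis is the distance in bases from the gene's start, and the lines are coloured by role. ISRE cores (circles) occur in 9 of 11 antiviral effectors and 6 of 7 class I genes, while the 4 class II genes hold NF-Y cores (bars) and no ISRE core.

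Most antigen presentation genes were high in all 3 low-low muscles. Of the 11 tested, 9 were lower in the groups with a high input than in low-low (Benjamini-Hochberg adjusted p under 0.05 in limma, all 12 arrays), with a median difference of -0.92 log2. Across all 10316 genes, 29.4% were lower and 28.2% higher in that comparison, with a median difference of 0.02. In 8 of the 11 genes all 3 low-low arrays lay above all 9 other arrays (6 of 7 class I and 2 of 4 class II genes), an ordering that held for 24.3% of all genes tested. No member had all 3 low-low arrays below the other 9, against 20.2% of all genes. In bulk muscle, fewer cells of a type and less RNA per cell cannot be told apart.

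The immunoproteasome subunits are the catalytic subunits that interferon gamma places in the proteasome. Psmb9 had 7.72, 7.43 and 7.67 log2 in high-high, 7.07, 7.69 and 7.99 in high-low and 8.05, 7.49 and 7.74 in low-high muscles, against 9.47, 9.95 and 10.43 in low-low muscles. The 9 arrays with a high input formed one band, and the lowest low-low array lay above it by more than 1 log2 unit. The difference of the other 3 groups from low-low was -2.30 log2 (SE 0.21, n = 12, limma adjusted p = 2.41e-06), or 4.92-fold lower. Psmb10 had 8.21, 7.88 and 8.18 in high-high, 7.49, 8.05 and 7.70 in high-low and 8.08, 7.80 and 8.21 in low-high muscles, against 9.55, 9.66 and 9.77 in low-low muscles. Its low-low values were close together and far from all others, with a difference of -1.71 (SE 0.13, limma adjusted p = 5.47e-07). Psmb8 had 7.19, 6.83 and 7.10 in high-high, 6.91, 7.56 and 7.81 in high-low and 7.55, 7.30 and 7.28 in low-high muscles, against 8.17, 8.65 and 9.06 in low-low muscles. The Psmb8 groups did not overlap either, although high-low replicate 3 came within 0.5 log2 of the lowest low-low array; the difference was -1.35 (SE 0.20, limma adjusted p = 9.83e-05).

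Genes of peptide transport and the class I light chain had smaller differences. Tap1, a subunit of the transporter that carries peptides into the endoplasmic reticulum, had 8.10, 7.37 and 7.55 in high-high, 7.43, 7.43 and 7.39 in high-low and 8.13, 7.64 and 7.73 in low-high muscles, against 8.15, 8.18 and 9.10 in low-low muscles. High-high replicate 1 and low-high replicate 1 nearly reached the low-low range, and the difference was -0.83 (SE 0.20, limma adjusted p = 0.00392), or -0.52 without low-low replicate 3 (limma adjusted p = 0.0279). The Tap1 call was lost with weight as a covariate (-0.86, limma adjusted p = 0.148), with the mean of its probe sets (-0.32, limma adjusted p = 0.0692) and when the 3' to 5' index entered the fit, where the difference was -0.07 (limma adjusted p = 0.948). Both covariates also ended the calls of other members, which are named at the end of these results. Tapbp, the tapasin that bridges transporter and class I molecule, ranged from 7.58 to 8.23 on the other 9 arrays and from 8.43 to 8.66 on the low-low arrays (difference -0.64, SE 0.11, limma adjusted p = 0.000395). B2m, the light chain of all class I molecules, ranged from 12.55 to 13.05 on the other 9 arrays and from 13.59 to 13.67 on the low-low arrays. Its low-low values were nearly level, and the difference was -0.92 (SE 0.10, limma adjusted p = 9.62e-06). Nlrc5, the transactivator of class I genes, did not pass the test: it ranged from 5.23 to 6.03 on the other 9 arrays and from 5.35 to 5.83 on the low-low arrays (0.10, SE 0.16, limma adjusted p = 0.591). Tap2, the partner of Tap1, lay at the filter and was not tested, with 4.52 to 5.05 on the other 9 arrays and 5.39, 5.03 and 5.50 on the low-low arrays.

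Among class II genes, Cd74 gave the clearest separation. Cd74, the invariant chain that escorts class II molecules, had 10.65, 10.45 and 10.45 in high-high, 10.18, 10.25 and 10.45 in high-low and 10.56, 10.29 and 10.62 in low-high muscles, against 12.11, 12.03 and 11.95 in low-low muscles. Both sets of arrays were tight and more than 1 log2 unit apart, with a difference of -1.59 (SE 0.10, limma adjusted p = 1.13e-07), or 3.02-fold lower. RT1-Bb, a class II beta chain, had 7.05, 7.38 and 6.94 in high-high, 6.68, 6.98 and 6.68 in high-low and 7.19, 6.96 and 7.30 in low-high muscles, against 7.54, 8.66 and 7.81 in low-low muscles. Low-low replicate 2 was the highest here, not replicate 3, and the difference was -0.98 (SE 0.20, limma adjusted p = 0.000982), or -0.65 without that array (limma adjusted p = 0.00366). The class II alpha chain RT1-Da overlapped between groups, with 7.86 to 8.83 on the other 9 arrays and 8.54, 9.40 and 8.54 on the low-low arrays. The difference was -0.46 (SE 0.18, limma adjusted p = 0.0489). It lost the call without any 1 of 8 arrays (all but high-high replicate 2, high-low replicate 2 and low-low replicates 1 and 3), and was -0.17 (limma adjusted p = 0.380) without low-low replicate 2. The alpha chain RT1-Ba did not pass the test on its brightest probe set (0.29, SE 0.21, limma adjusted p = 0.262), and passed as higher without low-low replicate 2 (0.57, limma adjusted p = 0.0403).

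Both interferon gamma-linked genes were lower in the groups with a high input, with no overlap of the arrays. Gbp2, a guanylate-binding GTPase, had 9.58, 9.58 and 9.75 in high-high, 8.34, 9.39 and 9.73 in high-low and 10.06, 9.59 and 9.82 in low-high muscles, against 11.70, 11.76 and 12.32 in low-low muscles. High-low replicate 1 was low, yet no array with a high input came within 1 log2 unit of low-low. The difference was -2.39 (SE 0.24, limma adjusted p = 4.12e-06), or 5.25-fold lower, the largest among the 29 members tested by their brightest probe sets. Irf1, the transcription factor induced by interferon gamma, ranged from 8.24 to 9.26 on the other 9 arrays and from 9.34 to 9.75 on the low-low arrays (difference -0.71, SE 0.13, limma adjusted p = 0.000466).

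**Figure D2:**
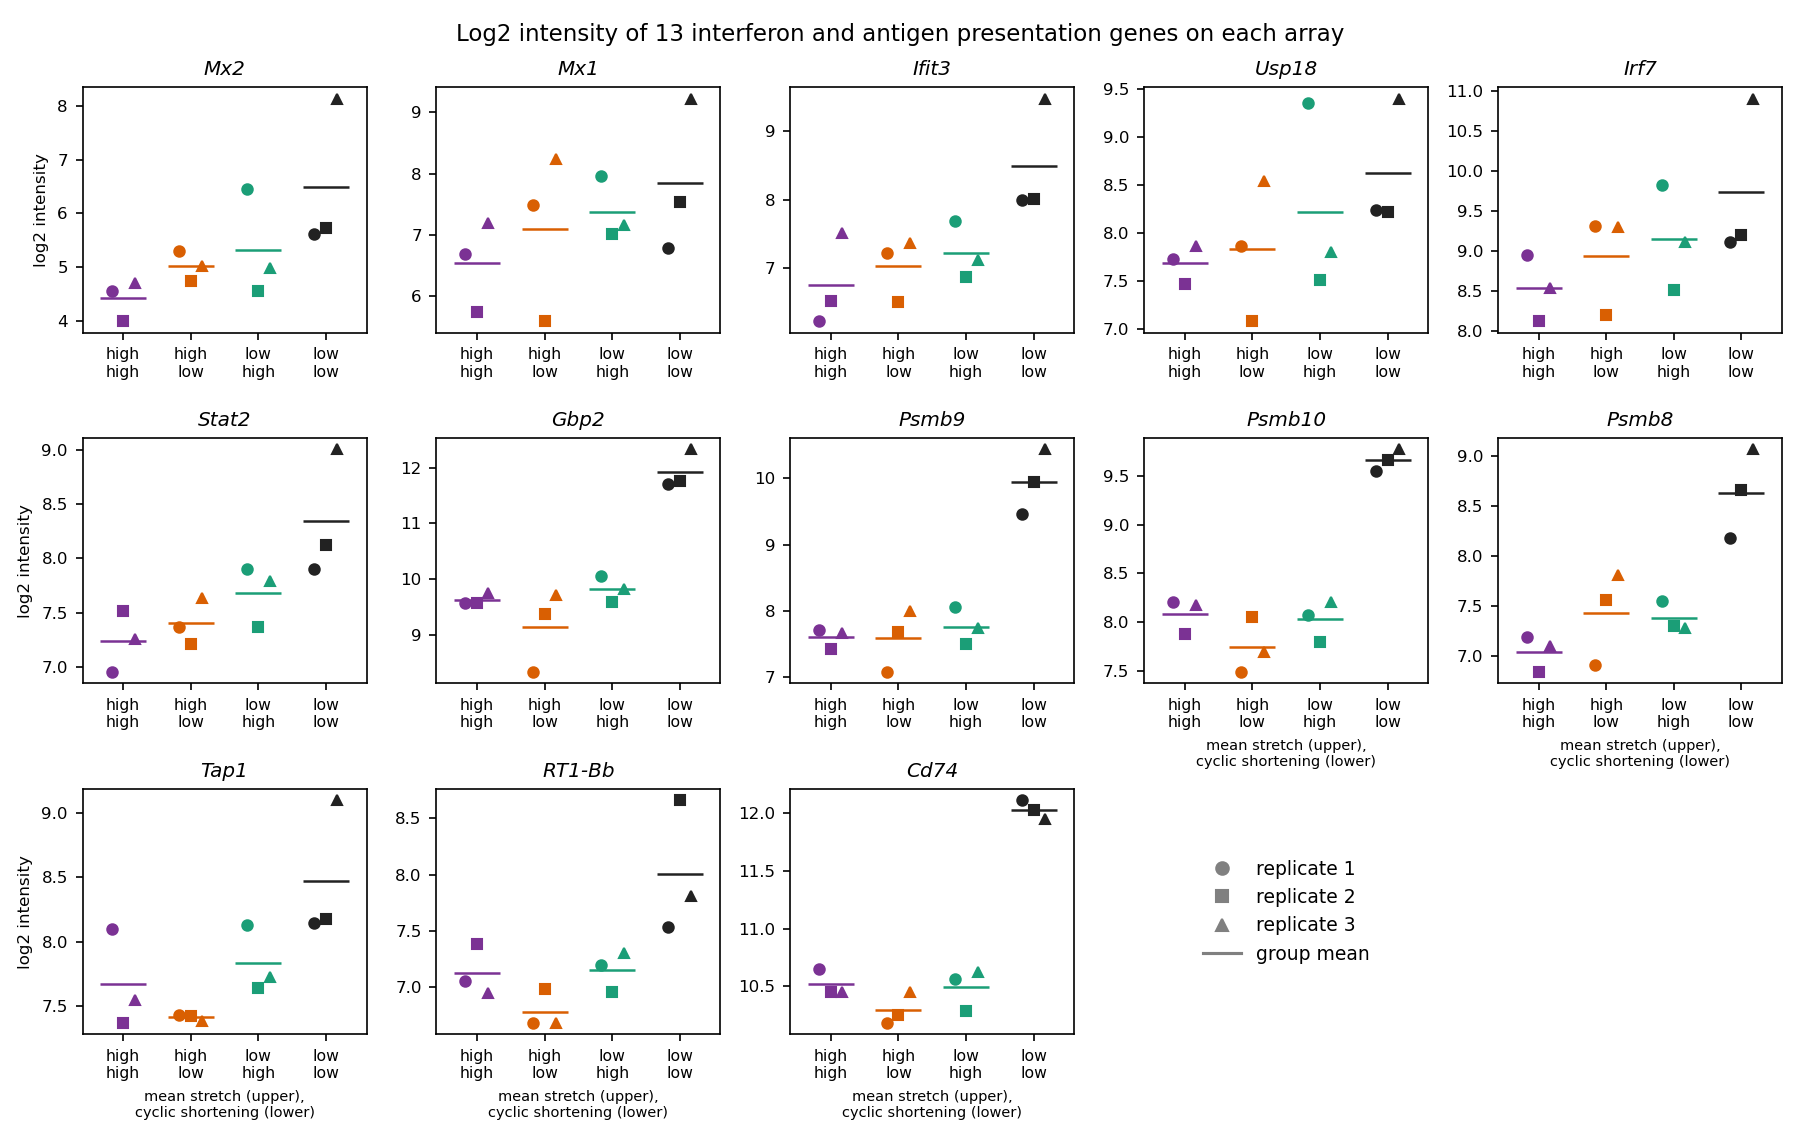
Log2 intensity (vertical axis) of 13 members on each of the 12 arrays, by mean stretch and cyclic shortening. The 13 were those with the largest range over the 12 arrays within their role. Symbols give the replicate and lines the group mean. For Psmb9, Psmb10, Gbp2 and Cd74 all 3 low-low arrays lie above the other 9, while for Mx2, Mx1 and Irf7 low-low replicate 3 alone does.

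Type I antiviral genes showed another arrangement, in which low-low replicate 3 alone was high for most of the genes. Of the 16 tested, 6 were lower and 1 higher in the groups with a high input than in low-low, with a median difference of -0.78, so the share that was lower was near the 29.4% of all genes. Over all 29 members, 18 passed, 17 as lower and 1 as higher, and the share that passed in either direction was near the 57.6% of all genes. Only 5 of the 16 had all 3 low-low arrays above the other 9, Stat2 among them by its brightest probe set only. In 10 of the 16 (62.5%), low-low replicate 3 alone lay above the other 9 arrays, which was so for 0 of the 11 antigen presentation genes and for 2.57% of all genes tested. Ifit2 was among these 10 by its brightest probe set only. On its dimmer probe set past the filter all 3 low-low arrays lay above the other 9 (7.85 to 8.96 against 4.67 to 5.56). Low-low replicate 3 exceeded the mean of replicates 1 and 2 by at least 2-fold in 10 of the 16 antiviral genes, in 0 of the 11 antigen presentation genes and in 0.514% of all genes. The median excess was 1.12 log2 in the antiviral and 0.16 in the antigen presentation genes. Part of the order within low-low was common to both arms. Replicate 3 was the highest of the 3 in 14 of the 16 and 7 of the 11, against 30.3% of all genes. Replicate 1 was the lowest in 13 of the 16 and 9 of the 11, against 37.9% of all genes. A gene with all 3 low-low arrays above the other 9 cannot have replicate 3 alone above them.

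The dynamin-like GTPases Mx1 and Mx2, which block the replication of viruses, had the widest ranges of the antiviral effectors. Mx2 had 4.56, 3.99 and 4.70 in high-high, 5.31, 4.74 and 5.02 in high-low and 6.45, 4.55 and 4.98 in low-high muscles, against 5.61, 5.72 and 8.14 in low-low muscles. Several of these values lie under the filter, low-high replicate 1 lay above low-low replicates 1 and 2, and low-low replicate 3 was far above all others. The difference was -1.57 (SE 0.49, limma adjusted p = 0.0162), and without low-low replicate 3 it was -0.74 and no longer passed (limma adjusted p = 0.121). Mx1 had 6.69, 5.74 and 7.20 in high-high, 7.49, 5.59 and 8.23 in high-low and 7.96, 7.01 and 7.17 in low-high muscles, against 6.79, 7.54 and 9.23 in low-low muscles. The groups overlapped widely, and the difference of -0.84 (SE 0.56) did not pass (limma adjusted p = 0.218).

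Ifit3, an antiviral protein of the tetratricopeptide family, had 6.21, 6.51 and 7.52 in high-high, 7.22, 6.50 and 7.36 in high-low and 7.68, 6.86 and 7.12 in low-high muscles, against 7.99, 8.01 and 9.48 in low-low muscles. Here all 3 low-low arrays were above the others, with replicate 3 higher still, and the difference was -1.49 (SE 0.35, limma adjusted p = 0.00283). Usp18, the protease that removes Isg15 from proteins and damps the type I receptor, had 7.73, 7.47 and 7.87 in high-high, 7.87, 7.08 and 8.54 in high-low and 9.35, 7.51 and 7.80 in low-high muscles, against 8.24, 8.22 and 9.40 in low-low muscles. Low-high replicate 1 and low-low replicate 3 shared the top, and the difference of -0.71 (SE 0.39) did not pass (limma adjusted p = 0.141). Without low-high replicate 1 it passed, at -0.90 (limma adjusted p = 0.0270).

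Of the transcription factors of the type I arm, Irf7, which amplifies interferon production, had 8.95, 8.12 and 8.54 in high-high, 9.31, 8.20 and 9.30 in high-low and 9.83, 8.51 and 9.11 in low-high muscles, against 9.11, 9.21 and 10.90 in low-low muscles. Replicates 1 and 2 of low-low lay inside the range of the other arrays, and the difference of -0.87 (SE 0.39) did not pass (limma adjusted p = 0.0763). It passed without low-low replicate 1 (-1.18, limma adjusted p = 0.0461) and without low-high replicate 1 (-0.98, limma adjusted p = 0.0475). Stat2, the signal transducer particular to type I and type III interferons, had 6.95, 7.51 and 7.26 in high-high, 7.37, 7.21 and 7.63 in high-low and 7.90, 7.36 and 7.79 in low-high muscles, against 7.90, 8.12 and 9.00 in low-low muscles. Its lowest low-low value and its highest other value were nearly level, and the difference was -0.90 (SE 0.21, limma adjusted p = 0.00305), or -0.57 without low-low replicate 3 (limma adjusted p = 0.0198). Irf9, the DNA-binding partner of Stat2, did not pass (0.14, SE 0.24, limma adjusted p = 0.630).

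Ifitm3, a membrane protein that blocks the entry of viruses, did not show the rise on replicate 3 alone. It ranged from 11.04 to 11.55 on the other 9 arrays and was 12.99, 12.93 and 12.87 on the low-low arrays, so that replicate 3 was the lowest of the 3. Its difference was -1.75 (SE 0.11, limma adjusted p = 9.43e-08), and its probe set may also read close relatives of the gene. Parp14, a mono-ADP-ribosyltransferase (-1.12, SE 0.21, limma adjusted p = 0.000602), and Ifi35 (-0.89, SE 0.17, limma adjusted p = 0.000579) were also lower in the groups with a high input. Bst2, the tetherin that holds budding viruses at the cell surface, was the only member higher there (0.38, SE 0.12, limma adjusted p = 0.0126). It ranged from 6.19 to 6.80 on the other 9 arrays and from 5.79 to 6.40 on the low-low arrays, and the call ended without low-low replicate 1 (0.24, limma adjusted p = 0.0980).

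The other antiviral effectors did not pass the test in this comparison. Isg15, the ubiquitin-like modifier, ranged from 8.24 to 9.94 on the 9 arrays with a high input, and was 8.88, 8.90 and 10.55 on the low-low arrays. Oas1a, which makes the activator of RNase L, ranged from 5.07 to 6.19 on those 9 arrays and was 5.51, 5.36 and 7.03 on the low-low arrays. For both genes replicates 1 and 2 lay inside the range of the 9 arrays and replicate 3 above it. Rsad2 (viperin) spanned 8.78 to 10.32 outside the low-low group and 8.19 to 10.34 within it. Ifit2, read by its brightest probe set, differed by -0.35 (-0.59 without low-low replicate 1, limma adjusted p = 0.0402), and the kinase Eif2ak2, which halts translation on sensing double-stranded RNA, by -0.24. Ifih1, a sensor of double-stranded RNA, was under the filter, with 3.95 to 4.95 outside low-low and 4.17 to 4.98 within it.

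**Figure D3:**
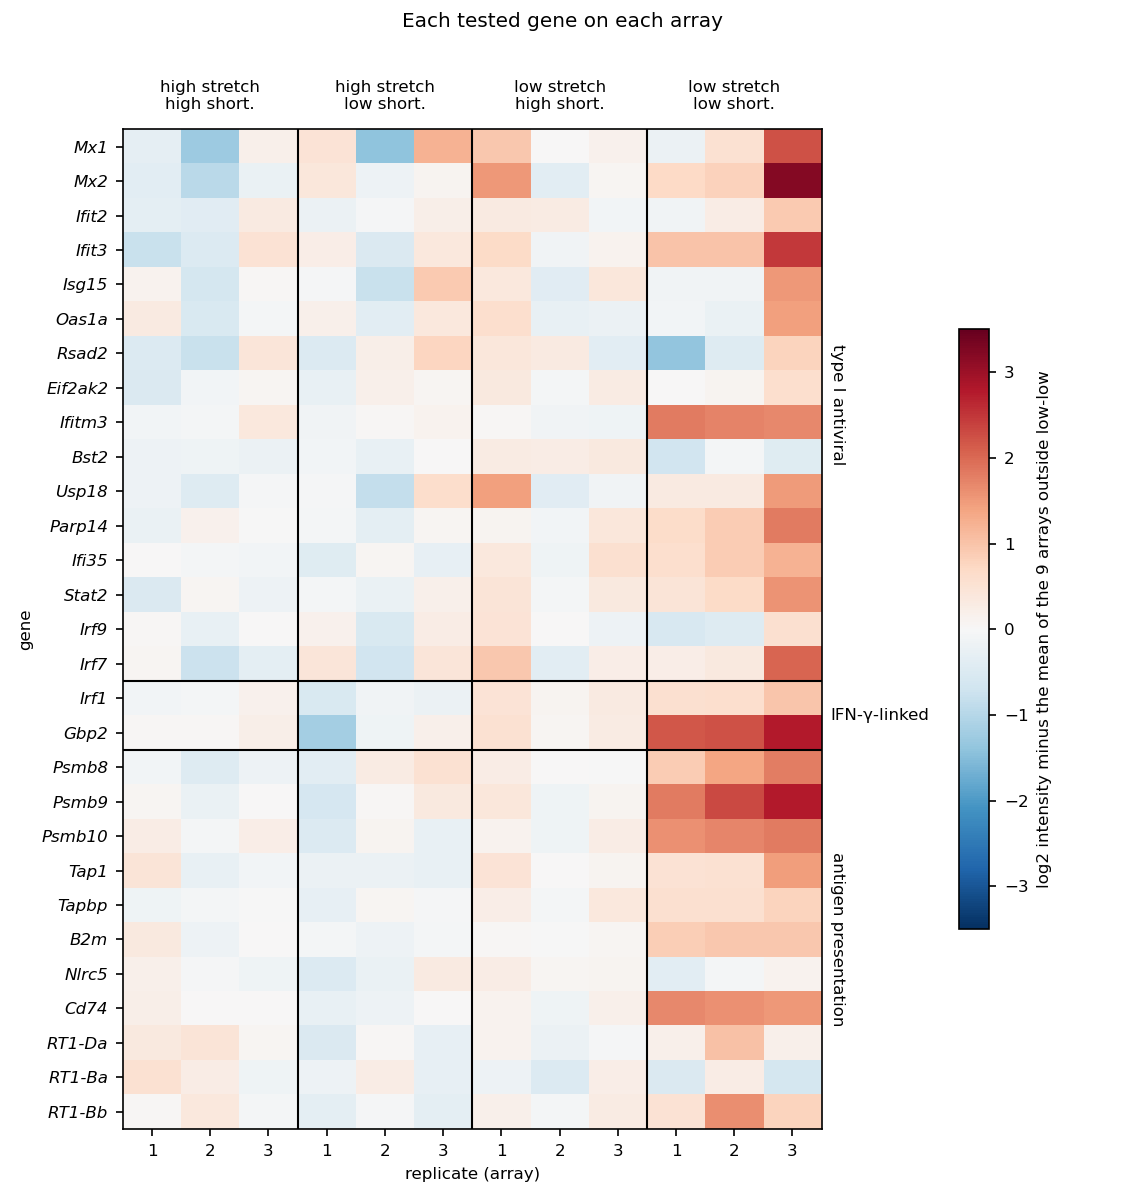
Each tested member (rows, by arm) on each array (columns), as log2 intensity minus the gene's mean over the 9 arrays outside low-low. The 3 low-low columns are high for most antigen presentation genes and Gbp2, and the column of low-low replicate 3 is high for most antiviral genes.

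The arms can be set beside each other array by array. As a median over genes, the deviation from the mean of the 9 other arrays was 0.13, 0.32 and 1.51 log2 on low-low replicates 1, 2 and 3 for the 16 antiviral genes. For the 11 antigen presentation genes it was 0.56, 1.03 and 0.94. Low-low replicates 1 and 2 together exceeded the 9-array mean by a median of 0.22 in the antiviral genes and 0.90 in the antigen presentation genes, against -0.02 in all genes tested. The median standard deviation within low-low was 0.65 for antiviral genes and 0.44 for antigen presentation genes, against 0.15 for all genes. Without low-low replicate 3 the median difference between the other 3 groups and low-low was -0.22 for the antiviral genes (5 lower, 1 higher of 16) and -0.90 for the antigen presentation genes (9 lower of 11). With all 12 arrays, 29.4% of all genes were lower and 28.2% higher in that comparison. Low-low replicate 3 had the lowest 3' to 5' index of the 12 arrays (1.13) and a labelled weight of 305, and their part in its antiviral values was not tested.

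**Figure D4:**
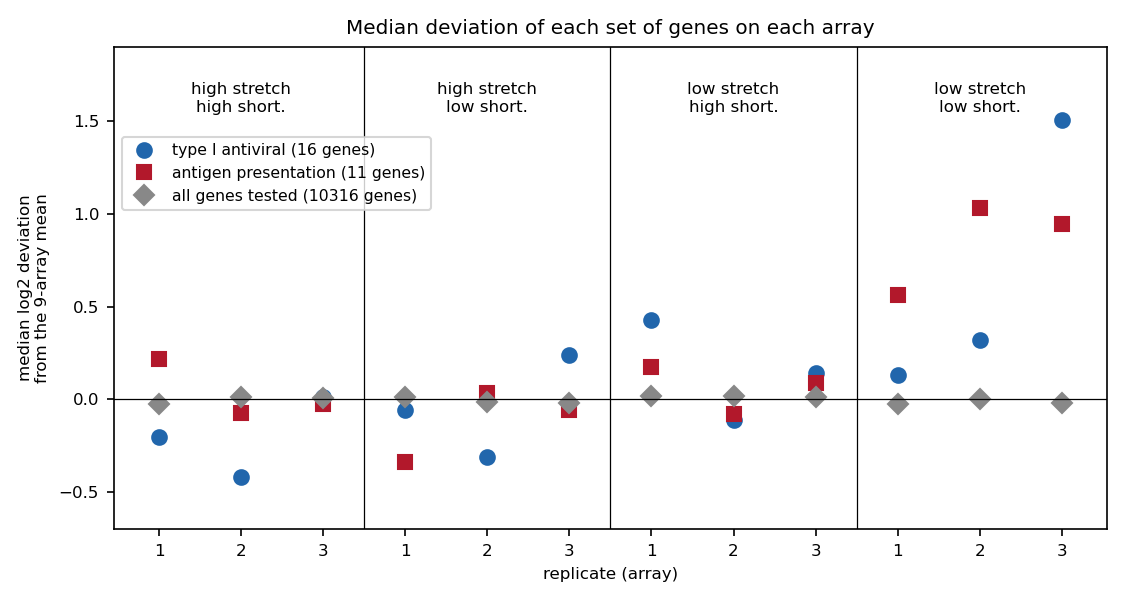
Median over the genes of each set of the log2 deviation from the mean of the 9 arrays outside low-low (vertical axis), for each array (horizontal axis). The antiviral genes reach 1.51 on low-low replicate 3 and 0.13 and 0.32 on replicates 1 and 2, whereas the antigen presentation genes lie between 0.56 and 1.03 on all 3.

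Outside low-low, low-high replicate 1 stood highest for the antiviral genes. It was the highest of the 9 arrays for 9 of the 16 antiviral genes and for 13 of all 29 members (44.8%), against 7.42% of all genes tested. Its median deviation from the 9-array mean was 0.43 log2 for the antiviral genes and 0.17 for the antigen presentation genes. The labels give no feature by which this muscle differed in treatment from the other low-high muscles.

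**Figure D5:**
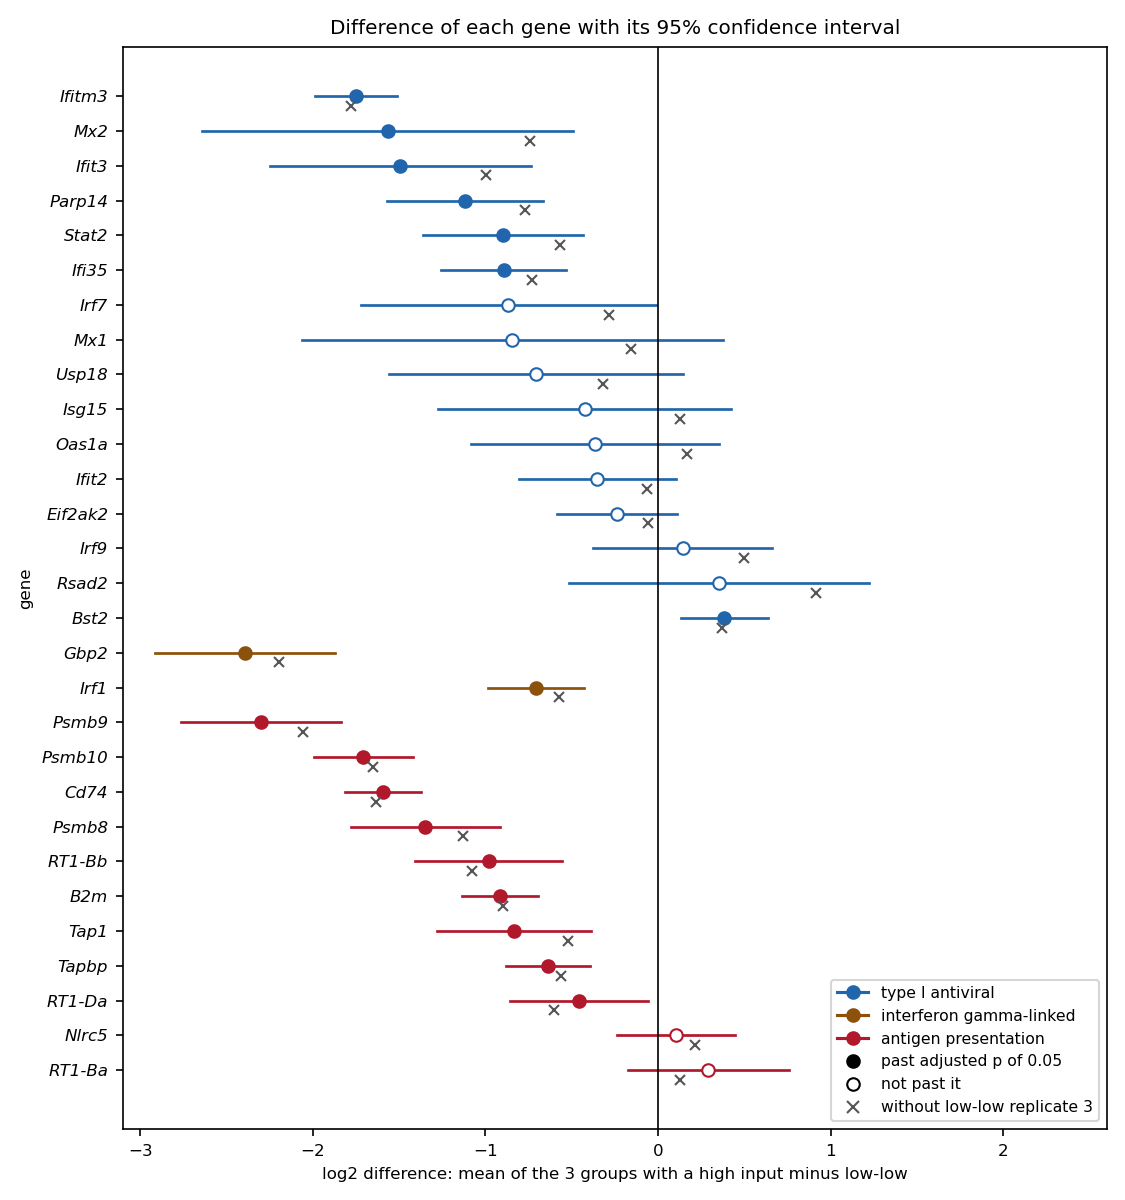
Difference of the mean of the 3 groups with a high input from low-low for each of the 29 members (log2, horizontal axis) with its 95% confidence interval; filled points passed an adjusted p of 0.05 and crosses give the difference without low-low replicate 3. Mx2 moves to -0.74 without that array, while Gbp2, Psmb9, Psmb10 and Cd74 stay below -1.5.

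The effect of stretch at low shortening compares high-low with low-low muscles. All 16 members that passed were lower in high-low muscles, 9 of 11 antigen presentation genes, 2 of 2 interferon gamma-linked genes and 5 of 16 antiviral genes. Across all genes, 49.9% passed in this comparison, 26.5% as lower and 23.4% as higher. Gbp2 differed by -2.78 (SE 0.29, limma adjusted p = 1.10e-05), Psmb10 by -1.92 (SE 0.16, limma adjusted p = 1.93e-06) and Cd74 by -1.73 (SE 0.12, limma adjusted p = 5.37e-07). Of the antiviral genes, Ifit3 differed by -1.46 (SE 0.43, limma adjusted p = 0.0128), whereas Mx2 at -1.47 (SE 0.60) did not pass (limma adjusted p = 0.0607). Of the antigen presentation genes, RT1-Da lost its call without high-low replicate 1 (-0.58, limma adjusted p = 0.0771) or low-low replicate 2 (-0.42, limma adjusted p = 0.0789). The Ifit3 call ended without high-low replicate 2 (-1.20, limma adjusted p = 0.0544) and without low-low replicate 3 (-0.97, limma adjusted p = 0.0533). Mx2 passed without low-low replicate 1 (-1.91, limma adjusted p = 0.0326), without low-low replicate 2 (-1.85, limma adjusted p = 0.0399) and without low-high replicate 1 (limma adjusted p = 0.0407).

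The effect of shortening at low stretch compares low-high with the same low-low muscles. There 14 members passed, 13 of them lower in low-high muscles: 7 of 11 antigen presentation genes, 2 of 2 interferon gamma-linked genes and 4 of 16 antiviral genes. Across all genes, 49% passed in this comparison, 25% lower and 24% higher, so the share of members that passed in either direction was near that of all genes. Gbp2 differed by -2.11 (SE 0.29, limma adjusted p = 9.31e-05), Psmb10 by -1.63 (SE 0.16, limma adjusted p = 7.78e-06) and Cd74 by -1.54 (SE 0.12, limma adjusted p = 1.62e-06). Bst2 was the single member higher in low-high muscles (0.68, SE 0.14, limma adjusted p = 0.00167). Both comparisons share the 3 low-low arrays, so their values are not independent of each other. Several of the low-high calls rested on single arrays. Irf1 (-0.41) lost its call without any 1 of 8 arrays, and was -0.28 without low-low replicate 3 (limma adjusted p = 0.186). Ifit3 lost it without low-low replicate 3 (-0.78, limma adjusted p = 0.114), low-high replicate 2 (-1.09, limma adjusted p = 0.0895) or low-high replicate 3 (-1.22, limma adjusted p = 0.0659). Ifi35 lost it without low-low replicate 3 (-0.46, limma adjusted p = 0.0953) or low-high replicate 2 (-0.43, limma adjusted p = 0.0986). Tapbp lost it without low-low replicate 3 (-0.39, limma adjusted p = 0.0581) or low-high replicate 2 (-0.34, limma adjusted p = 0.0659).

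Among muscles that had at least 1 high input, no member passed. For stretch at high shortening (high-high against low-high), limma called 0 of 29 members and 0% of all genes, and 1 member had an unadjusted p under 0.05, against 3.35% of all genes. That member was Bst2, at -0.48 (SE 0.14, limma adjusted p = 1.00). Gbp2 differed by -0.18 with a 95% interval of -0.82 to 0.45, Psmb10 by 0.06 with an interval of -0.29 to 0.41, and Cd74 by 0.03 with an interval of -0.24 to 0.30. Mx2 differed by -0.91 with an interval of -2.22 to 0.40, wider than the intervals of Gbp2, Psmb10 and Cd74. For shortening at high stretch (high-high against high-low), limma again called 0 of 29 members and 0% of all genes. RT1-Da had the only unadjusted p under 0.05 there (0.54, SE 0.23, limma adjusted p = 1.00), against 392 of the 10316 genes. Gbp2 differed by 0.49 with an interval of -0.15 to 1.12 and Cd74 by 0.22 with an interval of -0.05 to 0.49.

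Averaged over the other input, 16 members were lower at high than at low stretch and 0 higher, where 35.2% of all genes passed, 21% as lower and 14.1% as higher. For shortening, 7 members were lower and 1 higher (Bst2) at high shortening, where 33.4% of all genes passed, 17.9% as lower and 15.5% as higher. Both averages include a comparison with low-low. Some calls rested on single arrays. Mx2 lost its stretch call without low-low replicate 3 (-0.78, limma adjusted p = 0.0654), among other arrays. Ifit3 lost its stretch call without low-high replicate 1 (-0.85, limma adjusted p = 0.0643), among others. Bst2 lost its shortening call without low-low replicate 1 (0.24, limma adjusted p = 0.0633), among others. The interaction subtracts the shortening effect at low stretch from the one at high stretch. It passed for 12 of 29 members, against 33.9% of all genes. It was positive in 11, where 18.5% of all genes were positive and 15.4% negative: 6 antigen presentation genes, 2 interferon gamma-linked genes and 3 antiviral genes. It was negative for Bst2. A positive value means that high-high and low-low together exceeded high-low and low-high together.

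Probe sets of a gene disagreed for some members when each was tested by itself. A second probe set of Ifit2, dimmer than the one used, had 4.67 to 5.56 on the other 9 arrays and 7.93, 7.85 and 8.96 on the low-low arrays, a difference of -3.04 (limma adjusted p = 4.03e-07). For RT1-Ba, 2 probe sets differed by 0.29 and did not pass, while another, with 5.38 to 6.02 on the other 9 arrays and 7.76, 8.11 and 7.39 on the low-low arrays, differed by -1.98 (limma adjusted p = 2.59e-07). For Tap1, a second probe set did not pass (0.20, limma adjusted p = 0.347). Both probe sets of B2m (-0.92 and -0.49), of Stat2 (-0.90 and -0.75) and of Parp14 (-1.12 and -1.16) passed in the same direction. On the second Stat2 probe set, however, the groups overlapped, with 6.92 to 7.81 on the other 9 arrays and 7.70 to 8.76 on the low-low arrays. RT1 genes form a family of near-identical copies, so their probe sets may read more than 1 gene, and the position of probes on the transcripts was not given in the sources used here.

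Upstream of the members, the interferon genes read here were dim on all arrays. Ifnb1 ranged from 3.84 to 4.35 and Ifng from 3.09 to 3.39 log2 over all 12 arrays, both under the filter. Of 9 tested ligands, receptors and kinases, 3 were lower and 2 higher in the groups with a high input than in low-low, a share near the 57.6% of all genes. The kinases Jak2 (-1.58, SE 0.14, limma adjusted p = 1.51e-06) and Jak1 (-0.68, SE 0.08, limma adjusted p = 2.28e-05) and the transducer Stat3 (-0.78, SE 0.09, limma adjusted p = 1.03e-05) were lower. The receptor chain Ifnar2 was higher (1.32, SE 0.16, limma adjusted p = 2.19e-05). Of 9 sensors and adaptors of foreign nucleic acid, 3 were higher and 0 lower, where 28.2% of all genes were higher: Sting1 by 0.91, Traf3 by 1.07 and Irf3 by 0.50. Of 11 feedback inhibitors, 3 were higher and 3 lower, again near the share of all genes. Socs3, which blocks Jak kinases, was lower (-1.22, SE 0.11, limma adjusted p = 1.61e-06), as was the repressor Irf2 (-0.73), while Pias1 (1.81) and the phosphatase Ptpn2 (0.70) were higher.

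Other genes of the same machinery were counted beside the members, in a comparison where 29.4% of all genes were lower and 28.2% higher. Of 14 other class I processing genes, 10 were lower and 2 higher in the groups with a high input, with a median difference of -0.68. Psme1, a subunit of the proteasome activator PA28, ranged from 10.63 to 11.20 on the other 9 arrays and from 12.69 to 12.82 on the low-low arrays (-1.80, SE 0.09, limma adjusted p = 1.71e-08). The class I heavy chain RT1-CE10 differed by -2.71, and the peptide-loading chaperones Pdia3 and Calr by -0.82 and -0.74. Of 12 other class II genes, 4 were lower and 2 higher (median -0.23): RT1-Db1 by -1.68, RT1-DMb by -1.02, and the lysosomal enzymes Ifi30 and Lgmn by -0.87 and -0.77 were the 4 lower. The 2 higher were the class II transactivator Ciita (0.33, SE 0.10, limma adjusted p = 0.0160), with 5.26 to 5.78 on the other 9 arrays and at most 5.22 on the low-low arrays, and the costimulatory molecule Cd86 (0.57, SE 0.16, limma adjusted p = 0.00993). Both ran against the direction of the 4, and were named after their values were seen. The 6 called of 12 are a share below the 57.6% of all genes. Of 34 other interferon-stimulated genes, 13 were lower and 3 higher (median -0.22), fewer called in all than the share of all genes. Those of smallest adjusted p were Ifitm2 (-3.20), Apol9a (-2.22), Lgals3bp (-1.95) and Ifi27l2b (-1.12). The interferon-induced chemokines Cxcl9 (-3.19) and Cxcl10 (-2.42), named after their values were seen, had larger adjusted p-values than these 4, with differences beyond that of Apol9a. In 10 of these 34 genes all 3 low-low arrays were above the other 9, against 24.3% of all genes, and in 8 low-low replicate 3 alone was, against 2.57% of all genes.

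Markers of immune and other cells were read as summed linear intensity of each list. Such a sum is set mainly by the brightest probe sets of its list and can hide differences of single markers. Of 12 macrophage markers 10 passed the filter (Cd163 and Aif1 did not), and the sum of all 12 was 2305 to 2942 in high-high, 2278 to 2703 in high-low and 2262 to 2687 in low-high muscles, against 2105 to 2846 in low-low muscles. Low-low replicate 3 had the lowest macrophage sum of all arrays. Tested one by one, 4 of the 10 were lower in the groups with a high input than in low-low and 2 higher, near the share of all genes. The complement genes C1qc (-1.10, SE 0.16, limma adjusted p = 0.000101), C1qb (-1.04, SE 0.17, limma adjusted p = 0.000198) and C1qa (-0.83, SE 0.24, limma adjusted p = 0.0105) and the receptor Adgre1 (-0.52, SE 0.13, limma adjusted p = 0.00500) were lower, as the antigen presentation genes were. C1qc ranged from 5.65 to 6.45 on the other 9 arrays and was 7.05, 7.48 and 7.14 on the low-low arrays. C1qb ranged from 4.59 to 5.24 on the other 9 arrays and was 5.44, 6.21 and 6.13 on the low-low arrays. The lysosomal marker Cd68 (0.46) and the mannose receptor Mrc1 (0.64) were higher. These 6 genes were named after their values were seen. The sum of 6 pan-leukocyte markers was 1666 to 1948 over the other 9 arrays and 1327 to 1616 in low-low muscles. Singly, 4 of the 6 were higher and 0 lower in the groups with a high input, where 57.6% of all genes passed. The other 2, Ptprc and Cd53, had differences of the opposite sign that did not pass. The T cell markers Cd3e, Cd3d, Cd4, Cd8a and Cd5 and the B cell markers Cd79b, Ms4a1 and Blk were under the filter, as were Ncr1 and Klrb1a of the natural killer cell list. The sum of 8 T cell markers was 291 to 371 over the other 9 arrays and 255 to 291 in low-low muscles, and that of 6 natural killer cell markers was 232 to 349 over the other 9 arrays and 285 to 336 in low-low muscles. Of 3 dendritic cell markers on the array, 1 passed the filter (Flt3 and Clec9a did not), and the sum of the 3 was 183 to 275 over the other 9 arrays and 192 to 247 in low-low muscles. The sum of 7 endothelial markers was 1666 to 2156 over the other 9 arrays and 1375 to 1975 in low-low muscles, and that of 7 fibroblast markers was 8041 to 11334 over the other 9 arrays and 10313 to 11124 in low-low muscles. Singly, 2 endothelial markers were lower and 2 higher, and 2 fibroblast markers were lower and 1 higher, in the groups with a high input. Col1a2 had 6.46 to 7.69 log2 on the other 9 arrays and 8.68 to 9.41 on the low-low arrays. Col3a1 had 6.16 to 8.23 on the other 9 arrays and 9.50 to 10.02 on the low-low arrays. The fibroblast sum is mostly the brighter Dcn and Lum and does not show these differences. The sum of 9 cardiomyocyte markers was 89437 to 99764 over the other 9 arrays and 122277 to 126175 in low-low muscles. Singly, 5 of the 9 were lower and 1 higher in the groups with a high input, where 57.6% of all genes passed. The rise was not shared by all 9. Myh6 overlapped, with 13.90 to 14.02 log2 on the other 9 arrays and 13.95 to 14.03 on the low-low arrays. For Ryr2 and Mybpc3 all 3 low-low arrays lay below the other 9. The part of these lists in the members' differences was not tested.

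When the 3' to 5' index entered the fit as a covariate, 6 of 29 members passed in the comparison with low-low, all lower: 4 antigen presentation genes, 1 interferon gamma-linked gene and 1 antiviral gene, where 20.1% of all genes passed. These 6 were Psmb8, Psmb9, Psmb10, Cd74, Gbp2 and Ifitm3. The calls of Tap1, Tapbp, B2m, RT1-Da, RT1-Bb, Irf1, Mx2, Ifit3, Bst2, Parp14, Ifi35 and Stat2 ended (limma adjusted p of 0.0569 to 0.948). With weight as a covariate 13 members passed, where 29.6% of all genes did. Weight ended the calls of Tap1, RT1-Da, RT1-Bb, Mx2 and Bst2 (limma adjusted p of 0.0660 to 0.700). With the index in the fit, the median differences were -1.22 for the antigen presentation genes and -0.75 for the antiviral genes. The index was 1.13 to 1.69 in low-low and 2.56 to 4.33 on the other 9 arrays. It did not overlap, so these adjusted differences are extrapolated, and index and group cannot be told apart.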

How the data were processed

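Labelled RNA from 12 muscles (100 ng of total RNA each) was hybridized to Affymetrix arrays. The deposited values are log2 intensities that the authors made with RMA, as the submitters' processing notes name it, in an unstated version. Replicates are separate animals, per the labels. Leaving out controls, the array had 31042 probe sets, and 20826 of them had a single gene symbol. Probe sets whose mean was under the 40th percentile (4.91) were dropped, and the brightest one left stood for each of 10316 genes. A model of group means over all 12 arrays was fitted in limma 3.58.1 (R 4.3.3). Benjamini-Hochberg adjustment ran over the 10316 genes, and the threshold was 0.05. Differences are log2, the group with a high input minus the other.

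The members and the gene lists were chosen with earlier results of these data known. The comparison of the other 3 groups with low-low was chosen because those results showed the low-low arrays apart. Its adjusted p-values therefore do not come from a comparison set before the data were seen. Every member was named by its brightest probe set; array values were given for 13 members of set roles, and up to 4 called genes of smallest adjusted p were named from each pathway list. Alternatives covered the filter, the probe sets, normalization, the variance prior, array weights, covariates, a replicate block and each array left out. The fitting code was tested on simulated data. Promoter windows came from RefSeq tables (GRCr8). Mx2, Ifit2, Isg15, Usp18 and Nlrc5 were not among the 28 matched. Figures used matplotlib 3.10.9 in Python 3.11.15.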

Additional observations from a re-analysis of the deposited data

Results flagged for a closer look

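A test of the difference between the effect of shortening at high stretch and at low stretch (limma, n = 12) passed for 12 members, against 33.9% of all genes tested. In the antigen presentation arm the interaction was 2.21 for Psmb9 (SE 0.37, adjusted p = 0.000818), 1.98 for Psmb10 (SE 0.23, adjusted p = 6.88e-05), 1.76 for Cd74 (SE 0.18, adjusted p = 2.36e-05), 1.19 for RT1-Bb (SE 0.34, adjusted p = 0.0174), 1.04 for RT1-Da (SE 0.32, adjusted p = 0.0248) and 1.03 for B2m (SE 0.18, adjusted p = 0.000935). For the interferon gamma-linked genes it was 2.59 for Gbp2 (SE 0.41, adjusted p = 0.000603) and 0.69 for Irf1 (SE 0.22, adjusted p = 0.0302). In the antiviral arm it was 1.88 for Ifitm3 (SE 0.19, adjusted p = 2.38e-05), 1.07 for Parp14 (SE 0.36, adjusted p = 0.0379) and 0.80 for Ifi35 (SE 0.29, adjusted p = 0.0484). Bst2 alone had a negative interaction, -0.74 (SE 0.20, adjusted p = 0.0129). Leaving out 1 array ended 4 of these calls. Irf1 lost it without high-high replicate 3 (0.61, adjusted p = 0.0727), high-low replicate 1 (0.57, adjusted p = 0.0652), low-high replicate 2 (0.59, adjusted p = 0.0751) or low-low replicate 3 (0.56, adjusted p = 0.0713). RT1-Da lost it without high-high replicate 2 (0.95, adjusted p = 0.0584), high-low replicate 1 (0.91, adjusted p = 0.0559) or low-high replicate 2 (0.96, adjusted p = 0.0579). Parp14 lost it without high-high replicate 2 or 3, high-low replicate 1 or 2, or low-high replicate 1 or 2 (adjusted p of 0.0561 to 0.0873). Ifi35 kept it without high-low replicate 2, low-high replicate 3 or low-low replicate 1, and lost it without each of the other 9 arrays (adjusted p of 0.0623 to 0.112).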

How the results depend on the processing

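Over 5626 comparisons of a single member under an alternative, 5406 kept their side of the threshold, 168 lost the call, 49 gained it and 3 became calls of the opposite sign. The 5406 include members not called with or without the alternative, and a change of sign among those was not counted. The 3 were all RT1-Ba with the mean of its probe sets: -0.60 for stretch at low shortening (adjusted p = 0.0215), -0.55 for shortening at low stretch (adjusted p = 0.0335) and -0.47 for the other 3 groups against low-low (adjusted p = 0.0234), where the averaged probe sets include the dim one that differed.

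When the 3' to 5' index entered as a covariate, members called numbered 6 for the other 3 groups against low-low (18 without it), 5 for stretch at low shortening (16), 6 for shortening at low stretch (14), 8 for the stretch main effect (16) and 5 for the interaction (12). In the same fits the share of all genes called was 20.1%, 13%, 19.6%, 14.2% and 7.14%, against 57.6%, 49.9%, 49%, 35.2% and 33.9% without the index. With weight as a covariate the interaction had 6 (11.2% of all genes), and with age as a covariate shortening at low stretch had 9 (42.0% of all genes); the cause was not tested. Leaving out 1 array at a time gave 17 to 19 members for the other 3 groups against low-low, 15 to 17 for stretch at low shortening, 10 to 16 for shortening at low stretch, 14 to 16 and 7 to 9 for the main effects of stretch and shortening, 8 to 14 for the interaction, and 0 for both contrasts at a high level of the other input. The share of all genes called was 44.0% to 51.3% for stretch at low shortening and 42.6% to 50.2% for shortening at low stretch. It was 29.5% to 34.4% and 28.3% to 33.4% for the main effects of stretch and shortening, and 28.7% to 33.2% for the interaction. For the other 3 groups against low-low it was 57.6% with all 12 arrays.

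Replicate numbers paired no samples: the 18 pairs that share a number across groups had residual correlations of -0.195 to 0.296. With the replicate block, members called numbered 19 for the other 3 groups against low-low, 17 and 15 for stretch at low shortening and shortening at low stretch, 16 and 10 for the main effects of stretch and shortening, and 11 for the interaction. In the same fits the share of all genes called was 56.6%, 48.8%, 48.1%, 33.4%, 31.8% and 32.2%, in that order. With 3 arrays a group, genes as variable as Mx1 and Mx2 had standard errors of 0.56 and 0.49 log2 in the comparison with low-low.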
